A study of Homo sapiens with 2 samples.

Results

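Cytokine and chemokine genes, with the genes of their receptors, were examined in A549 cells, an established human lung adenocarcinoma line. They were all genes with a single gene symbol for their probe set whose symbol begins with CXCL, CXCR, CCL, CCR, IL, TNFSF, TNFRSF or CSF followed by a digit, together with LIF, ICAM1, PTGS2, NFKBIA, TNFAIP3 and SOD2 where the array annotation named them. This gave 115 genes of 14884 named on the array, each represented by its probe set of highest mean signal. One group was transfected with a control siRNA (siCONTROL) and the other with an siRNA directed at p62/SQSTM1 (siP62), and RNA was taken after 24 hours from otherwise identically labelled A549 cultures. Each group was read on 1 array, so no value has a replicate error and no difference could be tested. The siRNA sequences were not given in the sources used here.

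Chemokines are small secreted proteins that attract leukocytes through G protein-coupled receptors, and they are named CXC or CC after the spacing of their first cysteines. Interleukins, colony stimulating factors and ligands of the tumour necrosis factor superfamily act through other receptor families, many of which feed the JAK-STAT or the NF-kB pathway. The p62 protein is an autophagy receptor that also serves as a scaffold in NF-kB signalling. Epithelial cells of the lung are a source of neutrophil- and monocyte-attracting chemokines, while most chemokine receptors are known from leukocytes.

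SQSTM1 itself had a log2 signal of 8.64 with the control siRNA and 7.30 with the p62 siRNA, which left 39.5% of the control level. Pairs of values for a gene are given with the siCONTROL array first and the siP62 array second. The values were log2 signals made by RMA, a method that scales arrays to a like distribution, so a difference is measured against the bulk of the array. Over the 7896 genes that reached 5.35, the median signal of the named probe sets, in at least 1 array (53.1% of the genes), the median difference was 0.04 and its robust SD over genes was 0.22. That SD is a spread over genes and not an error between replicates. Of 9 A549 and lung epithelial markers measured, 7 reached 5.35 with the control siRNA and 5 with the p62 siRNA, with summed signals of 12.23 and 12.26 on the log2 scale, led by KRT18 at 11.95 and 11.97. The surfactant protein genes SFTPD (5.85 and 5.27) and SFTPB (5.66 and 5.30) were the 2 that fell short of the limit in the siP62 array, and SFTPC, the defining alveolar type II marker, was at 4.27 in both. Of 6 leukocyte markers measured, 2 reached 5.35 in each array, CD68 and CD14, and LYZ was at 3.02 and 3.06. The signal summed over those 6 markers was 8.90 and 8.85 on the log2 scale. Of 5 endothelial markers 1 reached 5.35 with the control siRNA and 2 with the p62 siRNA, with summed signals of 6.88 and 7.18. Of 2 fibroblast markers 0 and 1 did, with 5.21 and 5.62. The part of these markers in the values below was not tested, and in bulk RNA fewer cells of a type and less RNA per cell cannot be told apart.

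Most cytokine and receptor genes lay low in A549. Of the 115 genes, 24 reached 5.35 with the control siRNA and 25 with the p62 siRNA, 21 of them in both. Together 28 genes (24.3%) reached it in at least 1 array and are called kept, against 53.1% of all genes. The limit is a midpoint of the array and no detection call, so a value below it does not show that a gene was silent. IL27, IL17C and ICAM1 reached the limit in the siCONTROL array alone, and CCL22, CCL5, IL31RA and IL17RD in the siP62 array alone. These 7 genes had to differ in that direction to cross the limit. The kept genes nearest to the limit were IL17RD and IL31RA, each 5.40 in the siP62 array, and CCR7, 5.45 in the siCONTROL array. Just outside it lay IL17REL and IL1RAP, each 5.34 in the siCONTROL array, and IL17RE, 5.30 in the siP62 array. The array annotation used here named no gene of the TNFSF series, and its TNFRSF symbols were those of 2 noncoding transcripts. Probe sets without a symbol were not used, so this says nothing about the level of the unnamed genes. NFKBIA, TNFAIP3 and SOD2 were not analysed here.

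**Figure D1:**
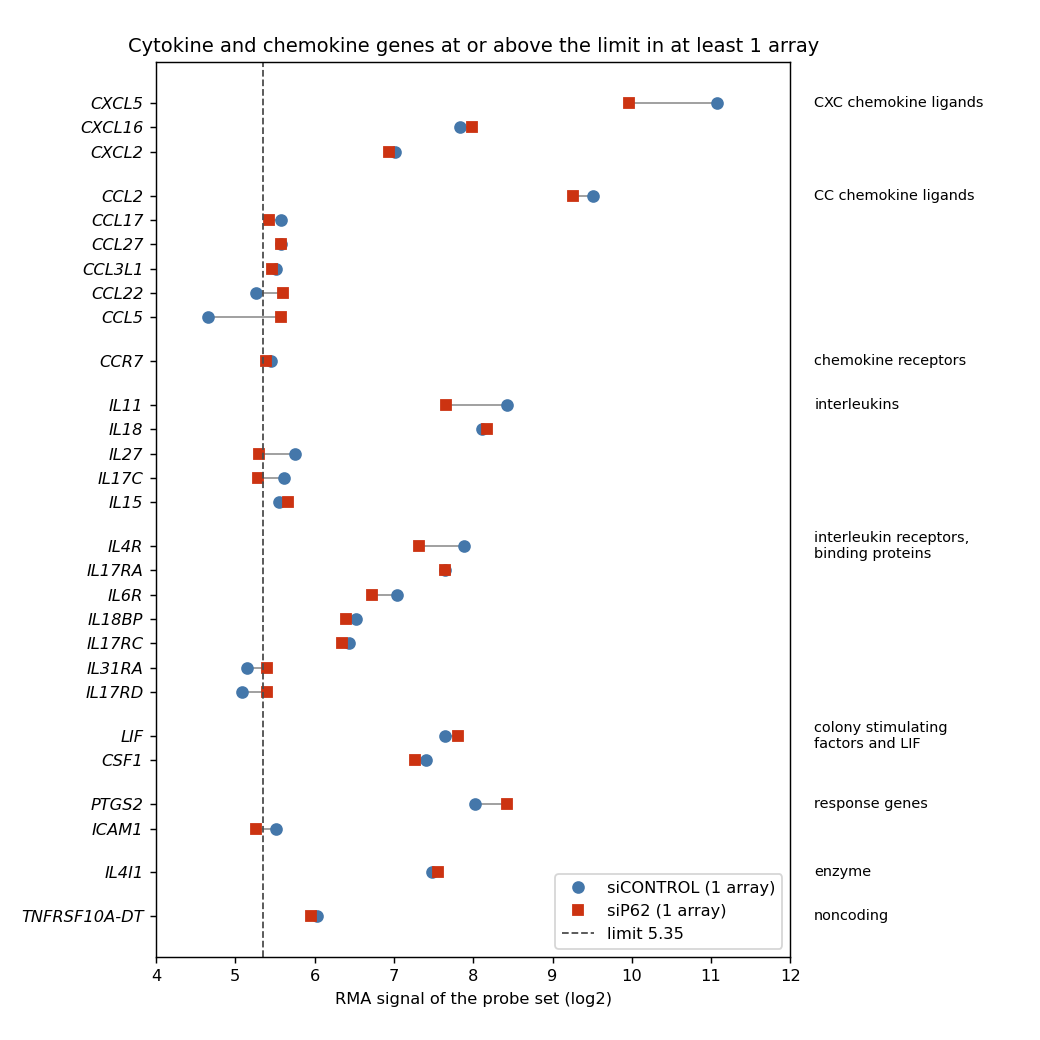
Log2 RMA signal of each of the 28 kept genes (rows, grouped by role) in the siCONTROL array (circle) and the siP62 array (square), with the limit of 5.35 as a dashed line. CXCL5, IL11 and IL4R lie to the left in the siP62 array, CCL5 and PTGS2 to the right, and most other pairs nearly coincide.

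Few of the kept genes differed by much. At 1.5-fold or more (a log2 difference of 0.585), 2 of the 28 kept members were lower in the siP62 array, CXCL5 and IL11, and 1 was higher, CCL5. Of all kept genes 1.6% were lower and 2.08% higher by that rule, together 3.67%, or 126 and 164 genes. When the median difference was subtracted, the split over all kept genes became 154 lower and 127 higher, and 3 members were lower and 1 higher, IL4R being the additional member. At 2-fold or more CXCL5 was the only member, on the lower side, where 0.228% of all kept genes lay, and 0 members were on the higher side, where 0.165% lay. With so few members past either limit, the counts are a description of these genes. The median difference over the 28 members was -0.065, with 16 lower, 11 higher and 1 equal, beside a median of 0.04 over all kept genes. Over the 21 members that reached the limit in both arrays, it was -0.07.

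**Figure D2:**
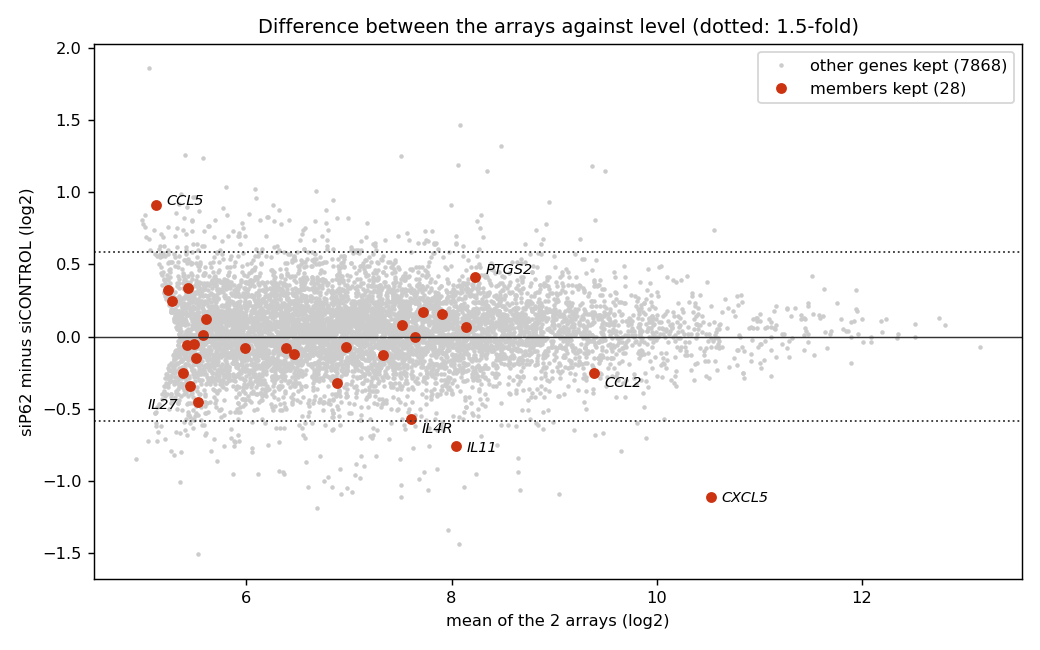
Difference between the arrays (siP62 minus siCONTROL, log2) against the mean of both arrays for all kept genes (grey) and the 28 kept cytokine and receptor genes (red), with dotted lines at 1.5-fold. CXCL5 (-1.11) and IL11 (-0.76) lie below the lower line, CCL5 (0.91) above the upper line at the left edge, and IL4R (-0.57) next to the lower line.

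Among the CXC chemokine ligands, the neutrophil-attracting CXCL5 was lower after p62 silencing while the related CXCL2 and the CXCR6 ligand CXCL16 were little different. CXCL5 had a log2 signal of 11.08 with the control siRNA and 9.97 with the p62 siRNA, a difference of -1.11 that left 46.3% of the control level. None of the other 393 genes in its bin, 1 of 20 groups of kept genes ordered by mean level, had a lower difference, with a robust SD of 0.15 over the bin. CXCL2, which like CXCL5 acts on the receptor CXCR2, had 7.01 and 6.94, a difference of -0.07. CXCL16, a membrane-anchored chemokine that can be shed, had 7.83 and 7.99, a difference of 0.16. CXCL5 alone of these 3 genes passed 1.5-fold. The differences of CXCL2 and CXCL16 lay within the robust SD of their bins, 0.25 and 0.20.

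The other 10 CXC ligands lay below 5.35 in both arrays, between 2.66 and 4.80 in the siCONTROL array and between 2.63 and 4.80 in the siP62 array. CXCL8, the best known neutrophil chemokine, was at 4.58 and 4.80. CXCL6 and CXCL3, close relatives of CXCL5 and CXCL2, were at 2.74 and 2.92 and at 3.81 in both arrays. Cross-reaction of the probes among these similar genes was not checked. CXCL9, CXCL10 and CXCL11, the ligands of CXCR3 that interferon induces, were at 3.15, 2.66 and 3.13 with the control siRNA and at 2.68, 2.63 and 2.76 with the p62 siRNA. CXCL12, the ligand of CXCR4, was at 4.46 and 4.19, and CXCL14 at 4.31 and 3.96. CXCL17, a mucosal chemokine, was at 4.80 in both arrays. None of the 10 differed by 1.5-fold.

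CXCL5 and CXCL2 lie in the same gene cluster on chromosome 4, and both carry an identical NF-kB motif ahead of their start. The 250 bases before each gene start are shown to place that motif (RefSeq, GRCh38.p14, 5′ to 3′ on the gene's strand). The CXCL5 stretch is chr4:73998678-73998927, minus strand, and the CXCL2 stretch is chr4:74099196-74099445, minus strand. Capitals mark matches to the NF-kB consensus on either strand.
CXCL5: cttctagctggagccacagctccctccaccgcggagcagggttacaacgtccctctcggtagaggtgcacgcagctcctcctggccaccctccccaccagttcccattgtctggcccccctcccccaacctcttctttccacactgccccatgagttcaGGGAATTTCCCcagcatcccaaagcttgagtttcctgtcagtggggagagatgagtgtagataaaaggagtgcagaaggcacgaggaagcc
CXCL2: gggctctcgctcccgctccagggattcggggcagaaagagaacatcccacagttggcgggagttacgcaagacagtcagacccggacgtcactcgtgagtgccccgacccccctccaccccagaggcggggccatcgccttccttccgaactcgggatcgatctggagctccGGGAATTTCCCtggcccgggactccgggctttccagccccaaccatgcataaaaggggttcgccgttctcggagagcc
In both, the run in capitals is GGGAATTTCCC, made of 2 overlapping matches on opposite strands. It begins 91 bases before the start of CXCL5 and 78 bases before that of CXCL2. The differences were -1.11 for CXCL5 and -0.07 for CXCL2, and a part of the motif in either was not tested.

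Besides CXCL5, only PF4 and CXCL2 of its cluster reached the limit, and neither was lower by 1.5-fold. The other measured genes lay below 5.35 in both arrays, where a decrease like that of CXCL5 may not show. From CXCL8 to CXCL2 the RefSeq annotation orders 9 protein-coding genes, of which 8 were measured and CXCL1 was not used here. CXCL3, next to CXCL5 on the CXCL2 side, was at 3.81 in both arrays. PPBP, a platelet chemokine on the other side, was at 2.55 and 2.63. PF4, platelet factor 4, whose symbol falls outside the naming rule, was the only other gene of the cluster past 1.5-fold, and it was higher in the siP62 array, with 6.39 and 7.09, a difference of 0.70. Its near relative PF4V1 had 5.27 and 4.72, both below the limit of 5.35, a difference of -0.55. Within this cluster CXCL5 and PF4 differed in opposite directions.

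**Figure D3:**
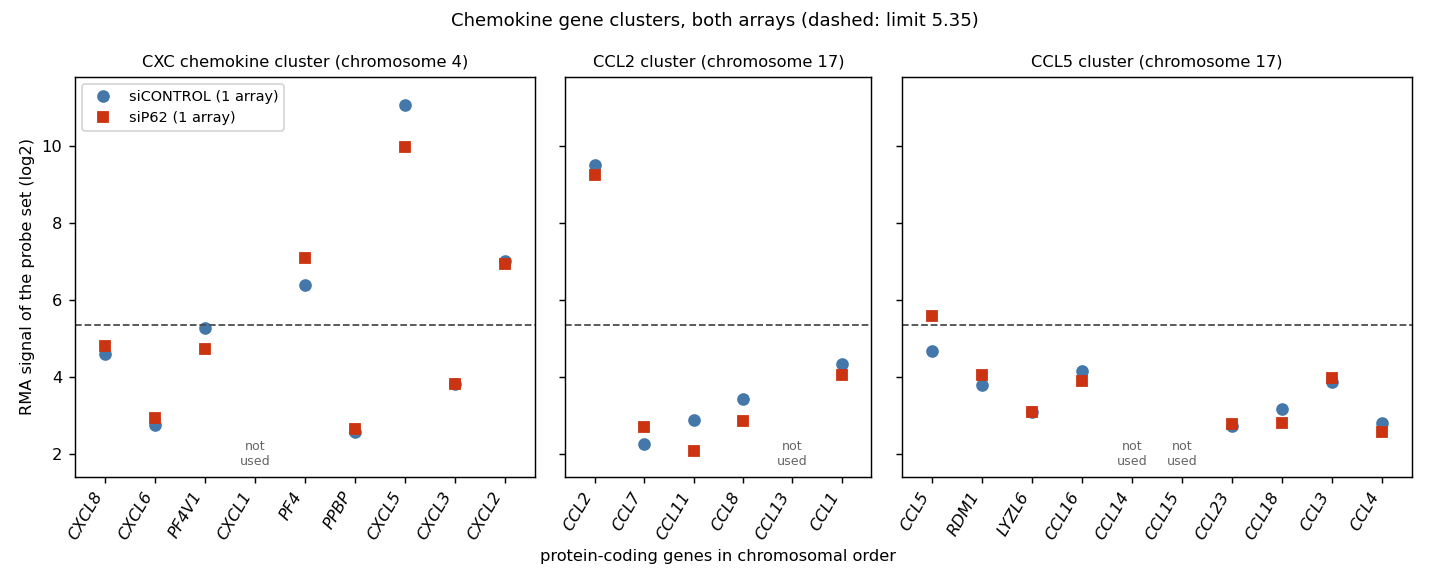
Log2 RMA signal in the siCONTROL array (circles) and the siP62 array (squares) for the protein-coding genes of 3 chemokine clusters in chromosomal order, with the limit of 5.35 as a dashed line. CXCL5, PF4 and CXCL2 are the genes above the limit in the CXC cluster, CCL2 in the second and CCL5 (siP62 array only) in the third.

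Among the CC chemokine ligands, 6 of 22 were kept, 3 lower and 3 higher in the siP62 array, with a median difference of -0.02. Of the 3 higher ones, CCL5 and CCL22 reached the limit in the siP62 array alone and had to be higher. Over the CC ligands that reached it in both arrays, the median was -0.1. CCL2, which attracts monocytes through CCR2, had 9.51 with the control siRNA and 9.26 with the p62 siRNA, a difference of -0.25, or 84.1% of the control level. In its bin of 395 genes of like level, 27 had a lower difference, with a robust SD of 0.18. CCL5, which attracts T cells and monocytes, went the other way, with 4.66 and 5.57, a difference of 0.91. Its siCONTROL value lay below 5.35, so its signal there may be background and no fold is given. Of the 395 genes in its bin, 4 had a higher difference, and the robust SD was 0.39 in this lowest bin, where genes had to differ to pass the limit. CCL22, a ligand of CCR4, also reached the limit in the siP62 array alone, with 5.26 and 5.60.

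CCL17, the other ligand of CCR4, which lies near CCL22 on chromosome 16 with CX3CL1 between them, had 5.58 and 5.43. The differences were 0.34 for CCL22, which had to be higher to reach the limit, and -0.15 for CCL17. CCL27, a skin chemokine that binds CCR10, had 5.57 and 5.58, and CCL3L1, a copy of the CCL3 gene, 5.51 and 5.46. Whether the probes separate CCL3L1 from CCL3 was not checked, and CCL3 was at 3.86 and 3.97. The higher value of each of these 4 genes lay within 0.25 of the limit.

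The other 16 CC ligands lay below 5.35 in both arrays, with siCONTROL values of 2.24 to 5.28 and siP62 values of 2.07 to 5.05. CCL11, the eosinophil chemokine eotaxin, was the only one past 1.5-fold, at 2.87 and 2.07, and both values are so low that no fold is given. CCL7 and CCL8, which lie with CCL11 next to CCL2 on chromosome 17, were at 2.24 and 2.68 and at 3.42 and 2.85. CCL20, which attracts cells that carry CCR6, was at 3.05 and 3.08. CCL28, a mucosal chemokine of epithelia, was at 4.17 and 4.05. In the cluster of CCL5, the other 7 measured genes were at or below 4.14 in both arrays. Their differences went both ways, all from values below the limit. CCL16 (-0.25), CCL18 (-0.36) and CCL4 (-0.25) were lower in the siP62 array. RDM1 (0.26), CCL23 (0.06) and CCL3 (0.11) were higher, and LYZL6 was equal.

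Chemokine receptors were almost all low. CCR7, which guides cells to lymph nodes, was the only one of 14 to reach the limit, with 5.45 and 5.39. Its ligands CCL19 and CCL21 were at 5.28 and 4.20 with the control siRNA and at 5.05 and 4.15 with the p62 siRNA. The other 13 receptors ran from 2.33 to 4.75 with the control siRNA and from 2.46 to 4.72 with the p62 siRNA. The receptors of CXCL5 were among them, with CXCR1 at 3.34 and 3.08 and CXCR2 at 3.14 and 3.39. CCR2, the receptor of CCL2, was at 2.89 and 3.05, CXCR6, that of CXCL16, at 3.35 and 3.70, and CCR4, that of CCL17 and CCL22, at 2.90 and 3.03. CXCR4 was at 4.16 and 3.93. The kept ligands CXCL5, CXCL2, CXCL16, CCL2, CCL17 and CCL22 thus had none of these receptors above 5.35 in either array.

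CCR10, the receptor of CCL27 and CCL28, was the only receptor of this group past 1.5-fold, with 3.75 and 4.68. Both values are below the limit and no fold is given. Over all 87 members below the limit in both arrays, 3 passed 1.5-fold, namely CCR10 on the higher side and CCL11 and IL1RAP on the lower side. Of all genes below the limit, 4.77% did so, 2.02% as higher and 2.75% as lower. The median difference of the 87 members was 0.00, with 39 higher, 43 lower and 5 equal.

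**Figure D4:**
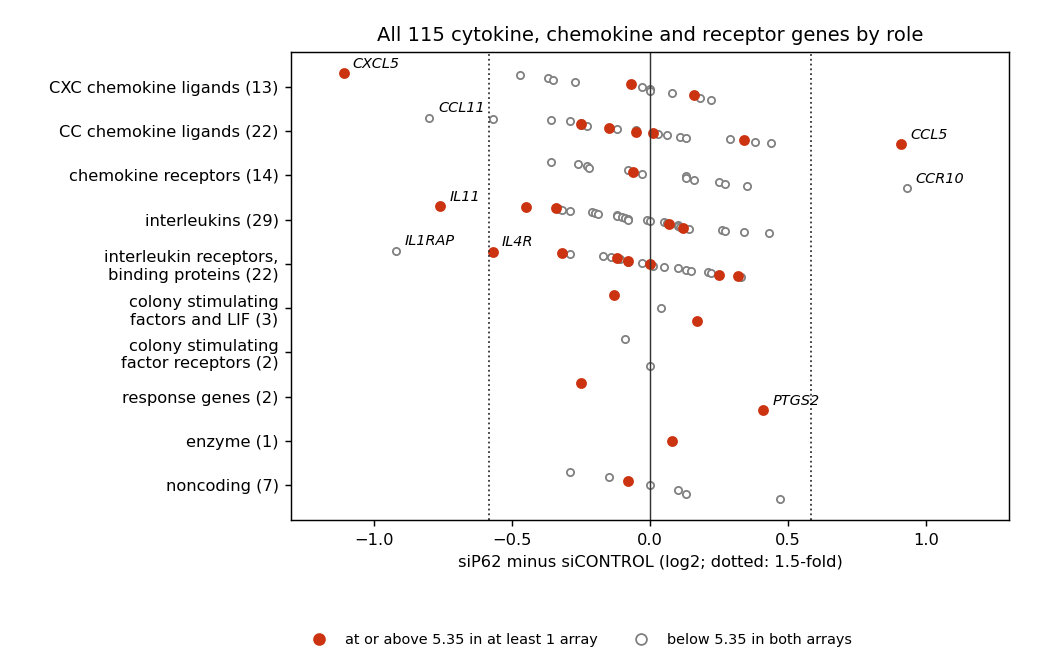
Difference between the arrays (siP62 minus siCONTROL, log2) of all 115 genes by role, with the number of genes in brackets; filled points reached 5.35 in at least 1 array, open points did not, and dotted lines mark 1.5-fold. CXCL5 and IL11 on the left and CCL5 on the right are the filled points past the lines, and CCL11, IL1RAP and CCR10 the open ones.

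Among the interleukins, IL11 stood lower in the siP62 array, and IL18 and IL15 were little different. IL11, a cytokine of the IL6 family that signals through gp130, had 8.42 with the control siRNA and 7.66 with the p62 siRNA, a difference of -0.76 that left 59.0% of the control level. In its bin of 394 genes of like level, 2 had a lower difference, with a robust SD of 0.20. IL18, an inflammasome substrate of the IL1 family, had 8.11 and 8.18, and IL15, which supports natural killer and memory T cells, 5.55 and 5.67. IL27 (5.75 and 5.30) and IL17C (5.62 and 5.28), an epithelial member of the IL17 family, were below the limit in the siP62 array. The 5 kept interleukins had a median difference of -0.34, which is the value of IL17C. Over IL11, IL18 and IL15, which reached the limit in both arrays, the median was 0.07.

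The 250 bases before IL11 are shown because they hold a different motif (chr19:55370464-55370713, minus strand, RefSeq, GRCh38.p14). Capitals mark the match to TGANTCA, the letters of the AP-1 site.
IL11: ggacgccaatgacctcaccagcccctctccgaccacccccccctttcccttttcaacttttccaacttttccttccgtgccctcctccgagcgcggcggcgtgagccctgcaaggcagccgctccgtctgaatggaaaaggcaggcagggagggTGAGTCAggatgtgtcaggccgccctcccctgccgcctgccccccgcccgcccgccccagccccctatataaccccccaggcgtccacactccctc
The match, TGAGTCA, begins 96 bases before the gene start and reads the same motif on both strands. No NF-kB consensus match was found in the window of IL11, which says only that these letters are not there.

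The other 24 interleukins lay below 5.35 in both arrays, with values of 1.94 to 4.86 in the siCONTROL array and 2.08 to 4.86 in the siP62 array, and 0 of them differed by 1.5-fold. IL32 was at 4.86 in both arrays. IL33, an alarmin of epithelial cells, was at 3.62 and 3.42, and IL1RN, the antagonist of the IL1 receptor, at 3.69 and 3.79. The T cell cytokines IL2, IL4 and IL21 were at 1.94, 2.66 and 2.36 with the control siRNA and at 2.08, 2.71 and 2.15 with the p62 siRNA. IL17A was at 3.23 and 3.33 and IL17F at 3.31 and 3.74. IL10, IL22 and IL26, cytokines of the IL10 family, ran from 2.29 to 2.84 with the control siRNA and from 2.21 to 3.10 with the p62 siRNA.

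Among the receptors and binding proteins of interleukins, 7 of 22 were kept, 4 lower, 2 higher and 1 equal, with a median difference of -0.08. The 2 higher ones, IL31RA and IL17RD, reached the limit in the siP62 array alone and had to be higher. Over those that reached it in both arrays, the median was -0.12. IL4R, the shared chain of the IL4 and IL13 receptors, had 7.89 with the control siRNA and 7.32 with the p62 siRNA, a difference of -0.57, or 67.4% of the control level. It lay just short of 1.5-fold as deposited and past it, at -0.61, with the median difference subtracted. Of the 395 genes in its bin of like level, 8 had a lower difference. IL6R, the IL6-binding chain, had 7.04 and 6.72, a difference of -0.32, within the range of its bin, where 36 of 394 genes were lower. IL21R, which adjoins IL4R on chromosome 16, was at 3.48 and 3.49, and the ligands IL4 and IL13 were below the limit, IL13 at 3.99 and 3.80.

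All 6 measured genes of the IL17 receptor family had values of 4.90 or more in both arrays. IL17RA, the chain shared by the family, had 7.64 in both arrays, and IL17RC, its partner for IL17A and IL17F, 6.43 and 6.35. IL17RD, which restrains growth factor signalling, had 5.08 and 5.40, and IL17RE, the receptor of IL17C, 5.08 and 5.30. IL17RB was at 4.90 and 5.23 and IL17REL at 5.34 and 5.20. Of the 6, 3 were higher, 2 lower and 1 equal, and 0 differed by 1.5-fold. IL17RE and its neighbour IL17RC on chromosome 3 differed by 0.22 and -0.08.

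IL18BP, the secreted inhibitor of IL18, had 6.52 and 6.40, and both chains of the IL18 receptor were below the limit, IL18R1 at 4.31 and 4.20 and IL18RAP at 2.91 and 2.96. IL31RA, the partner of OSMR in the IL31 receptor, had 5.15 and 5.40. IL1RAP, the coreceptor of the IL1 family, was at 5.34 in the siCONTROL array, just below the limit, and at 4.42 in the siP62 array, a difference of -0.92. It was the lowest difference among the receptors, and it entered none of the counts over kept genes. The other receptors below the limit included IL7R at 2.86 and 3.07, IL1RL1, the IL33 receptor, at 2.97 and 3.07, and IL20RB at 4.34 and 4.05.

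Among the colony stimulating factors and LIF, 2 of 3 were kept. LIF, a gp130 cytokine like IL11, had 7.64 with the control siRNA and 7.81 with the p62 siRNA, a difference of 0.17. The robust SD of its bin was 0.22, so the difference of LIF lay within that spread. No direction opposed to that of IL11 is read from it. CSF1, the macrophage growth factor, had 7.40 and 7.27, and its receptor CSF1R was at 4.30 in both arrays. CSF3, the granulocyte growth factor, was at 5.05 and 5.09 and its receptor CSF3R at 4.01 and 3.92.

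Of the inflammatory response genes in the set, PTGS2, the inducible cyclooxygenase, had 8.02 and 8.43, a difference of 0.41, or 132.9% of the control level. In its bin of 395 genes 19 had a higher difference, and the robust SD was 0.22. ICAM1, an adhesion molecule for leukocytes, had 5.51 and 5.26, the latter below the limit. IL4I1, which is named after interleukin 4 and encodes an amino acid oxidase, had 7.48 and 7.56. Of the 7 noncoding or pseudogene symbols, TNFRSF10A-DT, a transcript divergent from TNFRSF10A, was the only one kept, with 6.03 and 5.95. Its further probe set had 5.73 and 5.75, so the probe sets differed in sign by small amounts. The other 6 lay between 2.12 and 5.00.

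The promoter windows, 250 bases before to 50 bases after the gene start, were available for 13 of the 28 kept members, as 17 windows, since IL18BP had 4 and IL17RD 2. The NF-kB consensus occurred in 4 of the 17 windows (23.5%), those of CXCL5, CXCL2, CCL22 and IL4R, against 11.3% of all 35116 windows of that length. A looser pattern that contains it, GGG and CC with 5 free bases between them, occurred in 11 of the 17 windows (64.7%) and in 58.7% of all windows. TGANTCA occurred in 3 of the 17 (17.6%), those of IL11, IL6R and CCL27, and in 7.7% of all windows. With 17 windows these shares are a description and were not tested. All were searched on both strands, and a match is a description of the letters and no site of binding. The 4 members with the NF-kB consensus had differences of -1.11 (CXCL5), -0.07 (CXCL2), 0.34 (CCL22) and -0.57 (IL4R). CCL22 reached the limit in the siP62 array alone and had to be higher, so no shared or opposed direction is read from these values. The stretches of CCL22 (chr16:57358567-57358626, plus strand) and IL4R (chr16:27313914-27313973, plus strand) are shown for comparison with the run of CXCL5 and CXCL2, with the matches in capitals.
CCL22: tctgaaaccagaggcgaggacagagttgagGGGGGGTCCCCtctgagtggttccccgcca
IL4R: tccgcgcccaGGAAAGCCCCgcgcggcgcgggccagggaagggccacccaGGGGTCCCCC
The run of CCL22, GGGGGGTCCCC, begins 186 bases before the start and joins overlapping matches on both strands. IL4R holds GGAAAGCCCC, a match on the opposite strand, 50 bases before its start and GGGGTCCCCC 10 bases before it. Neither shares the run of CXCL5.

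The signalling genes around these cytokines were described from lists drawn up by function. Of 34 measured NF-kB signalling components 32 were kept, and at 1.5-fold 3 were lower and 0 higher, beside 1.6% and 2.08% of all kept genes, with a median difference of 0.03. The 3 include SQSTM1, the target of the siRNA, whose decrease was set by the design. The others were the deubiquitinase gene CYLD (7.12 and 6.08), which restrains the pathway, and IRAK1 (8.10 and 7.47), a kinase of IL1 and toll-like receptor signalling. SHARPIN, a subunit of the linear ubiquitin ligase, was highest among them at 6.67 and 7.23. The transcription factor subunits differed little, with RELA at 8.87 and 9.13, NFKB1 at 7.48 and 7.41, and RELB at 6.32 and 6.16.

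Of 23 measured JAK-STAT and gp130 signalling components 18 were kept, 11 lower and 7 higher, with a median difference of -0.15. Of these, STAT4 (5.58 and 5.31) reached the limit in the siCONTROL array alone and had to be lower. CISH (5.29 and 5.56) reached it in the siP62 array alone and had to be higher. Of all 7896 kept genes, 3303 were lower and 4378 higher, with a median of 0.04. At 1.5-fold 0 of the components differed, beside 3.67% of all kept genes. The gp130 partner receptors OSMR (10.19 and 9.91) and LIFR (6.31 and 5.98) were lower, as were STAT3 (10.97 and 10.72), JAK1 (10.88 and 10.68) and the feedback inhibitors SOCS4 (7.69 and 7.26) and SOCS5 (8.01 and 7.69). JAK2 (6.03 and 6.36), STAT5A (5.74 and 6.05), TYK2 (6.57 and 6.81) and IFNGR1 (5.98 and 6.22) were among the 7 higher. IL6ST, which encodes gp130, and IL11RA were not analysed here. IL11 was lower by 1.5-fold while none of the 18 kept components was, and no shared or opposed direction is read from these values.

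Of 18 further NF-kB target genes 11 were kept, 4 lower and 7 higher, with a median difference of 0.10. BCL2A1, a survival protein of the BCL2 family, was the only one past 1.5-fold, at 6.78 and 5.85, beside 3.67% of all kept genes. KLF6 was at 7.51 and 7.08 and the complement gene C3 at 10.31 and 10.04. EGR1, at 4.93 and 5.41, reached the limit in the siP62 array alone and had to be higher. Of 31 measured cytokines, growth factors and receptors that the naming rule leaves out 15 were kept, 7 lower and 8 higher, with a median of 0.05. At 1.5-fold 0 of them differed, beside the same 3.67%. CD44 (7.39 and 6.85), a hyaluronan receptor, and GDF15 (9.11 and 8.80), a stress-induced cytokine, were the lowest of them. Of the EGF receptor ligands, EREG (8.20 and 8.50) had the highest difference of the list. HBEGF (5.41 and 5.16) and the receptor gene NGFR (5.42 and 5.28) reached the limit in the siCONTROL array alone and had to be lower.

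**Figure D5:**
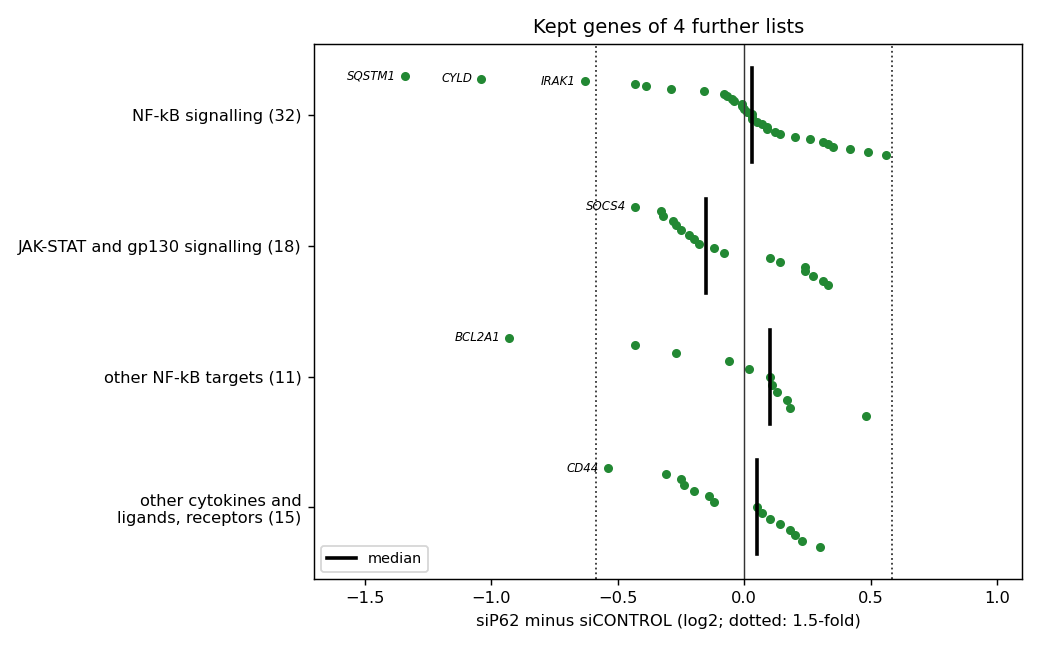
Difference between the arrays (siP62 minus siCONTROL, log2) of the kept genes of 4 further lists, with the number of genes in brackets, the median of each list as a black bar and dotted lines at 1.5-fold. SQSTM1, CYLD, IRAK1 and BCL2A1 lie past the lower line, and no gene lies past the upper line.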

How the data were processed

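RNA of the siCONTROL and siP62 samples was read on 1 Affymetrix whole-transcript array each. The authors deposited log2 signals for 48226 probe sets, made with Transcriptome Analysis Console 4.0.2.15 and RMA, per the submitters' processing notes. The genome build was not given in the sources used here. A platform annotation gave 1 gene symbol for 16098 probe sets, several for 0 and none for 32128, which were not used here. All 115 gene identifiers of the set were found in RefSeq (GRCh38.p14), which supplied names, gene order and promoters. A difference is the siP62 minus the siCONTROL value, and a fold is 2 to the power of its size. Genes were kept at 5.35 and binned by mean level into 20 bins. Counts and medians were computed with Python 3.11.15, pandas 2.3.3 and numpy 2.4.6, and loess with statsmodels 0.14.6 (fraction 0.3). With 1 array a group no test was run. The procedure was tested on simulated data. Members, lists and motifs were chosen with earlier results of these data known, and the motifs NF-kB consensus and TGANTCA after the values were seen. Named are SQSTM1, all kept members, those next to the limit, paired ligands and receptors, and the largest differences of each list; members below the limit, cluster neighbours and further list genes were added for illustration after their values were seen. Alternatives were centring, quantile normalization, probe set means and other filters. The number of arrays limits the precision.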

Additional observations from a re-analysis of the deposited data

How the results depend on the processing

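No paired analysis was possible because each group has 1 array. Of 112 values of the 28 kept members under the alternatives of centring, quantile normalization and probe set means, 112 moved by less than the robust SD of their bin, by 0.05 at most, and the sign turned for CCL27 alone (0.01, or -0.03 with the median subtracted and -0.01 with loess). The filter mattered more. Without a filter, 2 members were 1.5-fold higher and 4 lower, beside 305 and 318 of all genes, 25 genes were 2-fold higher, and the interleukin median was -0.08. The filter at the 70th percentile left 13 members and 4859 genes. Of those 13 members 0 were 1.5-fold higher and 2 lower, beside 85 and 82 of those genes, and 8 genes were 2-fold higher. The medians of CC ligands and of interleukin receptors were then -0.25 and -0.32. With the limit required in both arrays, 21 members and 7404 genes were left. Of those 21 members 0 were 1.5-fold higher and 2 lower, beside 113 and 99 of those genes, and the interleukin median turned to 0.07. Both filters admit fewer genes, and CCL5 is among those left out. CXCL5 and IL11 remained 1.5-fold lower under each centring, quantile normalization and probe set means. Without replicates, no difference could be separated from variation between cultures or arrays.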
